A study of Rattus norvegicus with 13 samples.

Results

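Lcn2, Lgals3 and Spp1, chosen by name as genes linked to mineralocorticoid signalling and tissue injury, were read from the day 3 libraries of a rat study of corneal neovascularization. They are 3 of 28357 named genes in those libraries, and all 3 were among the 14762 genes with enough counts to test. RNA came from the peripheral cornea and limboscleral tissue, the ring where cornea, limbus and sclera meet, of wild-type male Lewis rats aged 2 months with limbal stem cell deficiency. One group received spironolactone systemically at 25 mg/kg/day, given as daily subcutaneous injections, and the other received the vehicle of 90% olive oil with 10% DMSO. Each had 3 libraries at day 3. All animals carried the injury model, no uninjured cornea is analysed here, and the labels do not state that each library came from its own animal, so p-values refer to the spread among libraries, which may be technical. The study's day 7 libraries list genes by identifiers that no table used here pairs with symbols, so the 3 genes are not described at day 7.

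The mineralocorticoid receptor is a steroid-activated transcription factor best known for sodium retention in the kidney, and it is also present in immune, vascular and epithelial cells. Spironolactone occupies the receptor and blocks its activation by aldosterone and glucocorticoids. Lcn2 encodes lipocalin 2, a secreted protein that binds iron-carrying siderophores and is made by neutrophils and inflamed epithelium. Lgals3 encodes galectin 3, a lectin for galactose-containing sugars that is abundant in macrophages and in surface epithelia, the corneal epithelium among them. Spp1 encodes osteopontin, a secreted matrix phosphoprotein that engages integrins and CD44 and is made by activated macrophages and healing tissue. In the heart, vessels and kidney all of them have been described as mediators of injury driven by excess mineralocorticoid signalling.

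The receptor acts on DNA, so the sequence just upstream of the start sites was read for its element. RefSeq promoters of build GRCr8 were matched for 2 of the 3 genes, Lcn2 and Spp1. The 250 bases before each start are shown 5′ to 3′ on the gene's strand, with matches to the searched motifs in capitals. The Lcn2 window is chr3:36081781-36082030 and the Spp1 window chr14:5619805-5620054, both on the minus strand.
Lcn2: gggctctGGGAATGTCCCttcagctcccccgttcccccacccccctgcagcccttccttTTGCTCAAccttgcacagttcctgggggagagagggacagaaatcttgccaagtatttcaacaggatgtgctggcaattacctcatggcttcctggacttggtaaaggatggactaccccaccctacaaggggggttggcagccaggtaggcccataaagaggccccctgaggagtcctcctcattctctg
Spp1: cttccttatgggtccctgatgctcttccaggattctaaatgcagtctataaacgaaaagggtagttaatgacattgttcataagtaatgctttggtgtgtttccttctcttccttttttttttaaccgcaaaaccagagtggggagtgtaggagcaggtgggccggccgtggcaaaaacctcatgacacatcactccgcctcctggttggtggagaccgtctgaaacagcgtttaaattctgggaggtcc

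Both strands were searched. The steroid receptor element, AGAACA followed by any 3 bases and TGTTCT, was in neither window, and it was in 0.00364% of 27457 promoter windows of this length. Its single arm AGAACA was also in neither window, against 17.1% of all windows. The Lcn2 window held a pair of overlapping matches to the NF-kB motif (GGGA and CC with any 4 bases between them), GGGAATGTCC starting 243 bases upstream and its neighbour shifted by 1 base on the opposite strand. Of all windows 16.8% held that motif. Lcn2 also held the C/EBP motif TTGCNNAA as TTGCTCAA at 191 bases upstream, found in 9.2% of windows. The AP-1 motif TGANTCA, in 6.36% of windows, was in neither. The Spp1 window held none of the motifs searched. These are matches of letters in a short window and were not tested as binding sites.

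Levels are given as TPM, a share of all transcripts after correction for transcript length, so they can be set side by side between genes. Lgals3 had the highest level of the group, then Lcn2, then Spp1, in each of the 6 libraries. Lgals3 lay between 935.9 and 1211 TPM and ranked between place 102 and place 134 of all genes in a library. Lcn2 lay between 133.5 and 476.1 TPM and Spp1 between 29.6 and 239.8 TPM. With spironolactone the Lcn2 and Spp1 levels did not overlap across libraries, while with vehicle the lowest Lcn2 level (157.3 TPM) lay below the highest Spp1 level (239.8 TPM).

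The members differed in opposite directions and with very different precision. Lgals3 had 1.27-fold higher normalised counts with spironolactone and groups that did not overlap. Spp1 had 3.06-fold lower counts, with groups that overlapped in 1 pair of libraries. Lcn2 had 1.43-fold lower counts, well within the spread. None passed edgeR's quasi-likelihood test at an adjusted p of 0.05, where 0% of the 14762 genes tested were called. At an unadjusted p under 0.05 edgeR had 22.6% of genes, and in 32% of genes the treatments did not overlap.

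**Figure D1:**
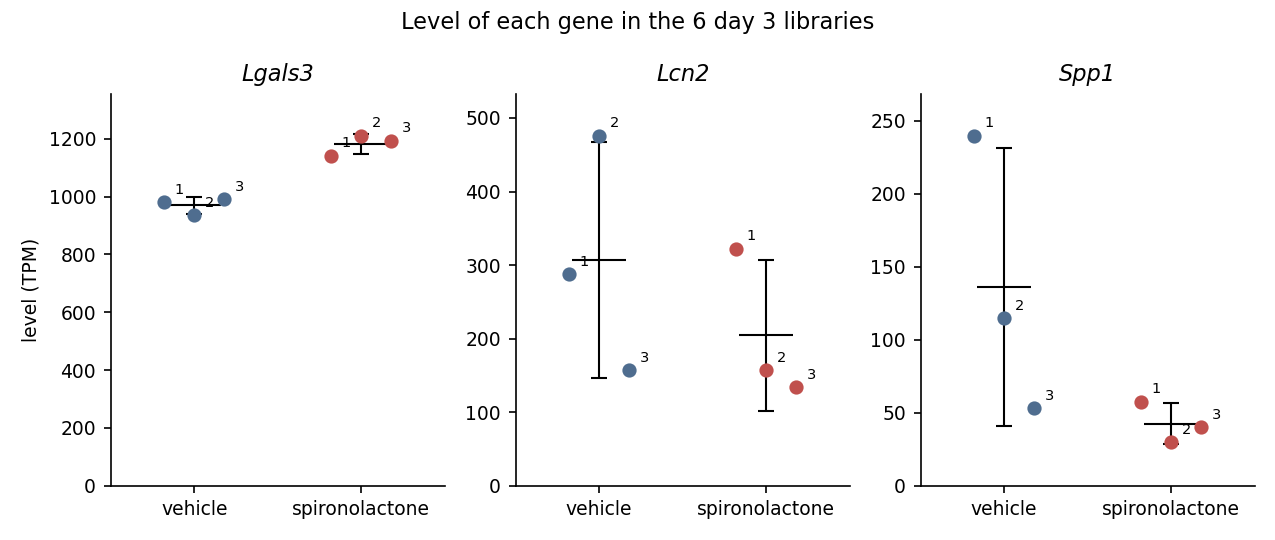
Level in TPM (vertical axes, linear from 0) of Lgals3, Lcn2 and Spp1 in each day 3 library, with replicate numbers beside the points, and the mean with SD (n = 3) as bars. The Lgals3 points of the treatments are apart, those of Lcn2 are mixed, and Spp1 spans 53.0 to 239.8 TPM with vehicle but only 29.6 to 57.6 TPM with spironolactone.

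Lgals3, galectin 3, was at 1142, 1211 and 1193 TPM in spironolactone replicates 1, 2 and 3. In vehicle replicates 1, 2 and 3 it was at 980.8, 935.9 and 990.8 TPM. Every spironolactone library was above every vehicle library, as for 16% of all genes tested in this direction, and within a treatment the libraries lay close together. In normalised counts, CPM scaled by TMM, Lgals3 averaged 622.9 ± 17.6 in the spironolactone and 489.1 ± 19.0 in the vehicle libraries (SD, n = 3 each). This log2 fold change, 0.35 (SE 0.054, 95% interval 0.22 to 0.48), had an adjusted p of 0.0649 by edgeR, the lowest reached and shared with other genes. By unadjusted p Lgals3 was at place 72 of the 14762 genes. An exact two-sided permutation test of its mean CPM gave p = 0.1, the lower limit for groups of 3. DESeq2 called Lgals3 higher with spironolactone (adjusted p = 2.6e-06), where it called 9.25% of 14425 genes.

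Spp1, osteopontin, was at 57.6, 29.6 and 40.0 TPM in spironolactone replicates 1, 2 and 3. In vehicle replicates 1, 2 and 3 it was at 239.8, 114.5 and 53.0 TPM. Of the 9 pairs of a spironolactone and a vehicle library, 8 had the lower level with spironolactone; the exception set spironolactone replicate 1 against vehicle replicate 3. Normalised counts averaged 37.5 ± 12.7 CPM in the spironolactone and 114.2 ± 79.2 CPM in the vehicle libraries (SD, n = 3 each). The log2 fold change of -1.61 (SE 0.60, 95% interval -3.11 to -0.12) had an adjusted p of 0.199 by edgeR, and DESeq2 gave 0.101. By fold change alone Spp1 was at place 107 from the bottom of the 14762 genes. The size rested on vehicle replicate 1: without that library the log2 fold change was -0.92 (adjusted p = 0.427). The exact two-sided permutation test gave p = 0.2.

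Lcn2, lipocalin 2, was at 322.4, 157.4 and 133.5 TPM in spironolactone replicates 1, 2 and 3. In vehicle replicates 1, 2 and 3 it was at 287.4, 476.1 and 157.3 TPM. High and low libraries occurred in both treatments, and 6 of the 9 pairs had the lower level with spironolactone. Normalised counts averaged 99.5 ± 50.2 CPM in the spironolactone and 142.5 ± 73.6 CPM in the vehicle libraries (SD, n = 3 each). The log2 fold change of -0.52 (SE 0.52) had an adjusted p of 0.572 by edgeR. Its 95% interval, from -1.83 to 0.79, covers both a large decrease and a modest increase. Without vehicle replicate 2 the log2 fold change was -0.04, and without spironolactone replicate 1 it was -1.01, with an adjusted p of 0.318. The exact two-sided permutation test gave p = 0.6.

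Every member had ample reads, with a lowest estimated count in a library of 641, for Spp1, and a highest of 15647, for Lgals3. Among the vehicle libraries the SD of log2 CPM was 1.07 for Spp1, larger than in 99.7% of genes tested, and 0.78 for Lcn2, larger than in 99.2%. For Lgals3 it was 0.06, larger than in 25.6% of genes. With spironolactone the SD was 0.49 for Spp1, 0.67 for Lcn2 and 0.04 for Lgals3. The highest vehicle library had 4.42 times the CPM of the lowest for Spp1, 2.96 times for Lcn2 and 1.08 times for Lgals3. Whether these spreads differ between treatments was not tested.

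**Figure D2:**
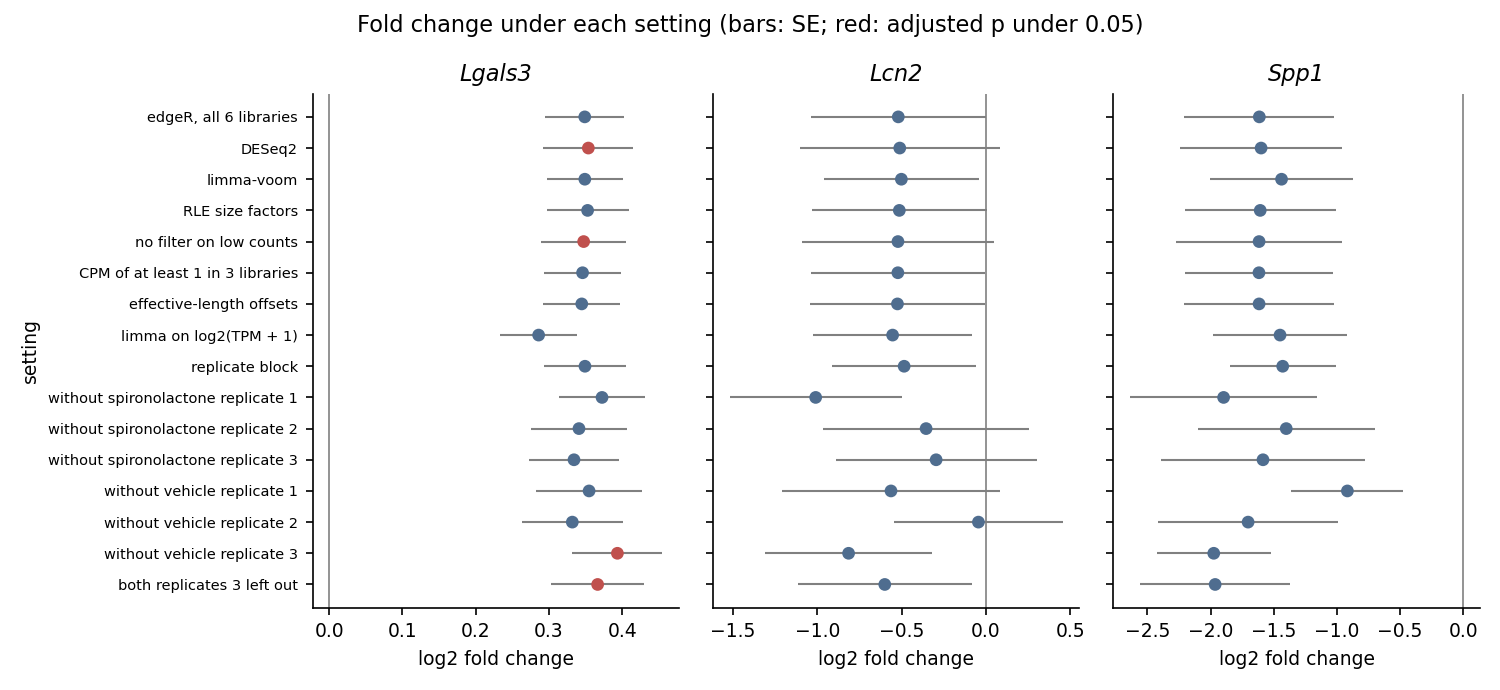
Log2 fold change of spironolactone over vehicle (horizontal axes, a separate range for each gene) with its SE, for Lgals3, Lcn2 and Spp1 under each test, scaling, filter and left-out library. Lgals3 keeps within 0.29 to 0.39, whereas Lcn2 runs from -1.01 to -0.04 and Spp1 from -1.98 to -0.92; red marks an adjusted p under 0.05.

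Lipocalin 2 is taken up through the receptors encoded by Slc22a17 and Lrp2, and it binds and protects the protease MMP9. Slc22a17 had 40.4 ± 9.87 TPM with spironolactone and 53.6 ± 5.31 TPM with vehicle (SD, n = 3 each; edgeR adjusted p = 0.276). Lrp2, megalin, was low at 2.17 ± 0.396 and 3.23 ± 0.127 TPM, or -0.52 on the log2 scale (SE 0.13, edgeR adjusted p = 0.0882), with no overlap. Mmp9 was at 9.29 ± 3.91 and 9.80 ± 2.52 TPM, or -0.06 on the log2 scale (SE 0.34). Of 22 receptors, partners and inducers of Lcn2, 19 were tested: 16 were negative and 3 positive on the log2 scale, and their median was -0.24 against -0.01 over all genes tested. edgeR called 0 of the 19, with 1 higher and 6 lower at an unadjusted p under 0.05, against 22.6% of all genes in either direction. DESeq2 called 4, all lower (Lrp2, Il6, Il1r1 and Cebpd), where it called 3.44% of all genes lower. Without overlap, 3 of the 19 were higher and 4 lower, against 16% and 16.1% of all genes.

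Il6, the gene of an interleukin that acts through STAT3 and induces lipocalin 2 in many epithelia, had the widest difference of that list. It was at 1.23, 0.48 and 0.33 TPM in spironolactone replicates 1, 2 and 3 and at 14.7, 5.07 and 1.61 TPM in vehicle replicates 1, 2 and 3. The groups did not overlap, and the order of the vehicle libraries was that of Spp1. The log2 fold change was -3.35 (SE 0.96), with an adjusted p of 0.124 by edgeR and 9.8e-04 by DESeq2. Cebpd, a transcription factor of the C/EBP family named after its values were seen, had 23.0 ± 2.86 against 59.8 ± 31.8 TPM and a log2 fold change of -1.31 (adjusted p = 0.159 by edgeR). Tlr4, a receptor for bacterial lipopolysaccharide, had 23.0 ± 0.229 against 20.5 ± 1.30 TPM, or 0.23 on the log2 scale (SE 0.058, edgeR adjusted p = 0.0938).

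Galectin 3 was not the only galectin with higher values. Lgals7, galectin 7 of stratified epithelium, had 1737 ± 236 TPM with spironolactone and 1027 ± 221 TPM with vehicle (SD, n = 3 each). Its log2 fold change of 0.81 (SE 0.16) had an adjusted p of 0.0747 by edgeR and 1.9e-05 by DESeq2, and its groups did not overlap. Lgals1, galectin 1 of stroma and vessels, was at 766.4 ± 114 against 843.4 ± 56.1 TPM, with a log2 fold change of -0.07 and a 95% interval from -0.36 to 0.23. Lgals9 had a log2 fold change of 0.20 (SE 0.17). Lgals3bp, which encodes a secreted glycoprotein bound by galectin 3, had 0.07 (SE 0.19). Lamp1, a lysosomal membrane glycoprotein carrying galectin ligands, had 0.12 (SE 0.047), and Mertk, a receptor for the uptake of dead cells, -0.20 (SE 0.10).

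Of the 17 family members and partners listed for galectin 3, 14 were tested: 9 positive and 5 negative, with a median log2 fold change of 0.06. edgeR called 0 of the 14. At an unadjusted p under 0.05 it had 2, both higher, against 22.6% of all genes in either direction. Lgals3 made up between 30.2% and 32.9% of the summed TPM of the 9 galectin genes with spironolactone and between 30.6% and 35.6% with vehicle, so these ranges overlapped. The share of Lgals1 lay between 18.3% and 23.7% with spironolactone and between 28.045% and 29.8% with vehicle, without overlap.

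The receptors of osteopontin did not share the size of its difference. Cd44 encodes a receptor for hyaluronan and osteopontin and had 251.1 ± 24.4 TPM with spironolactone and 226.1 ± 6.22 TPM with vehicle (SD, n = 3 each). Cd44 thus differed by 0.27 on the log2 scale (SE 0.081, adjusted p = 0.121 by edgeR), opposite in sign to that of Spp1, and DESeq2 called it higher (adjusted p = 0.0397). Among the integrin chains, the difference on the log2 scale was 0.10 (SE 0.071) for Itgav and -0.20 (SE 0.13) for Itgb3. Itga9 and Itga8 had -0.27 (SE 0.095) and -0.25 (SE 0.078), both with groups that did not overlap. Of 21 receptors, proteases and relatives, 16 were tested, 7 positive and 9 negative, with values from -0.37 to 0.34. Without overlap, 2 of the 16 were higher, Cd44 and Itgb6, and 3 were lower, against 16% and 16.1% of all genes tested. edgeR called 0 of the 16. At an unadjusted p under 0.05 it had 2 higher and 3 lower, against 22.6% of all genes in either direction. Dspp, of the same family of bone and tooth phosphoproteins as Spp1, was listed at 0 in every library.

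The receptor gene differed little, and its classical targets lay between -1.32 and 1.06 on the log2 scale. Nr3c2, the mineralocorticoid receptor gene, was at 7.03 ± 1.13 and 7.76 ± 0.495 TPM. The log2 fold change of Sgk1, a kinase gene induced by the receptor, was -0.36 (SE 0.12, edgeR adjusted p = 0.156), and that of Fkbp5, a chaperone gene, was 0.07 (SE 0.22). The clock gene Per1 and the deubiquitinase gene Usp2 had -0.43 (SE 0.13) and -0.64 (SE 0.19), both without overlap. Of 18 receptor and target genes 17 were tested, 12 negative and 5 positive, with a median of -0.14. Without overlap, 1 of the 17 was higher and 3 were lower, against 16% and 16.1% of all genes. edgeR called 0 of the 17. At an unadjusted p under 0.05 it had 2 higher and 4 lower, against 22.6% of all genes in either direction. DESeq2 called 2 of them, both lower, Sgk1 (adjusted p = 0.0494) and Usp2 (adjusted p = 0.0314), where it called 3.44% of all genes lower. The ends of the range, named after their values were seen, were Scnn1g and Zbtb16. Scnn1g, a subunit of the epithelial sodium channel, had a mean of 0.70 TPM with spironolactone and 1.80 TPM with vehicle, a log2 difference of -1.32 (SE 0.45, adjusted p = 0.159 by edgeR), with overlap. Zbtb16, a transcription factor, had a mean of 4.03 TPM with spironolactone and 1.99 TPM with vehicle, a log2 difference of 1.06 (SE 0.40, adjusted p = 0.185 by edgeR), also with overlap.

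Among other injury genes linked to mineralocorticoid signalling, nearly all had lower values with spironolactone. Spp1 and Lcn2 shared that sign, Lcn2 well within its spread and neither called by edgeR, and Lgals3 did not. Of 30 listed genes 29 were tested, and 28 had negative log2 fold changes, with a median of -0.35 beside -0.01 over all genes tested, of which 7623 were negative. The count of negative values ran from 25 to 29 over the alternative fits and was 28 with both replicates 3 left out. In 7 of the 29 the spironolactone libraries lay below all vehicle libraries, against 16.1% of all genes. edgeR called 0, with 11 lower and 0 higher at an unadjusted p under 0.05, and DESeq2 called 5, all lower (Fn1, Ccn2, Nlrp3 and Rac2 among them). Of all 14762 genes tested, edgeR had 1534 lower and 1798 higher at that unadjusted p, and DESeq2 called 3.44% of genes lower. Mmp2 was the single positive gene, at 0.04 (SE 0.15), and its sign turned with limma on log2 TPM and without vehicle replicate 3.

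Ccl2, the gene of a monocyte-attracting chemokine, was at 46.8, 29.9 and 39.1 TPM in spironolactone replicates 1, 2 and 3 and at 161.9, 72.8 and 58.0 TPM in vehicle replicates 1, 2 and 3. Vehicle replicate 1 was the highest library for Ccl2, as it was for Spp1 and Il6. The matrix gene Ccn2, listed under its older symbol Ctgf, differed by -0.46 on the log2 scale (SE 0.16) and the adhesion gene Icam1 by -0.44 (SE 0.18). Nlrp3 of the inflammasome and Rac2, a GTPase of leukocytes, had -0.53 (SE 0.12) and -0.43 (SE 0.098).

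**Figure D3:**
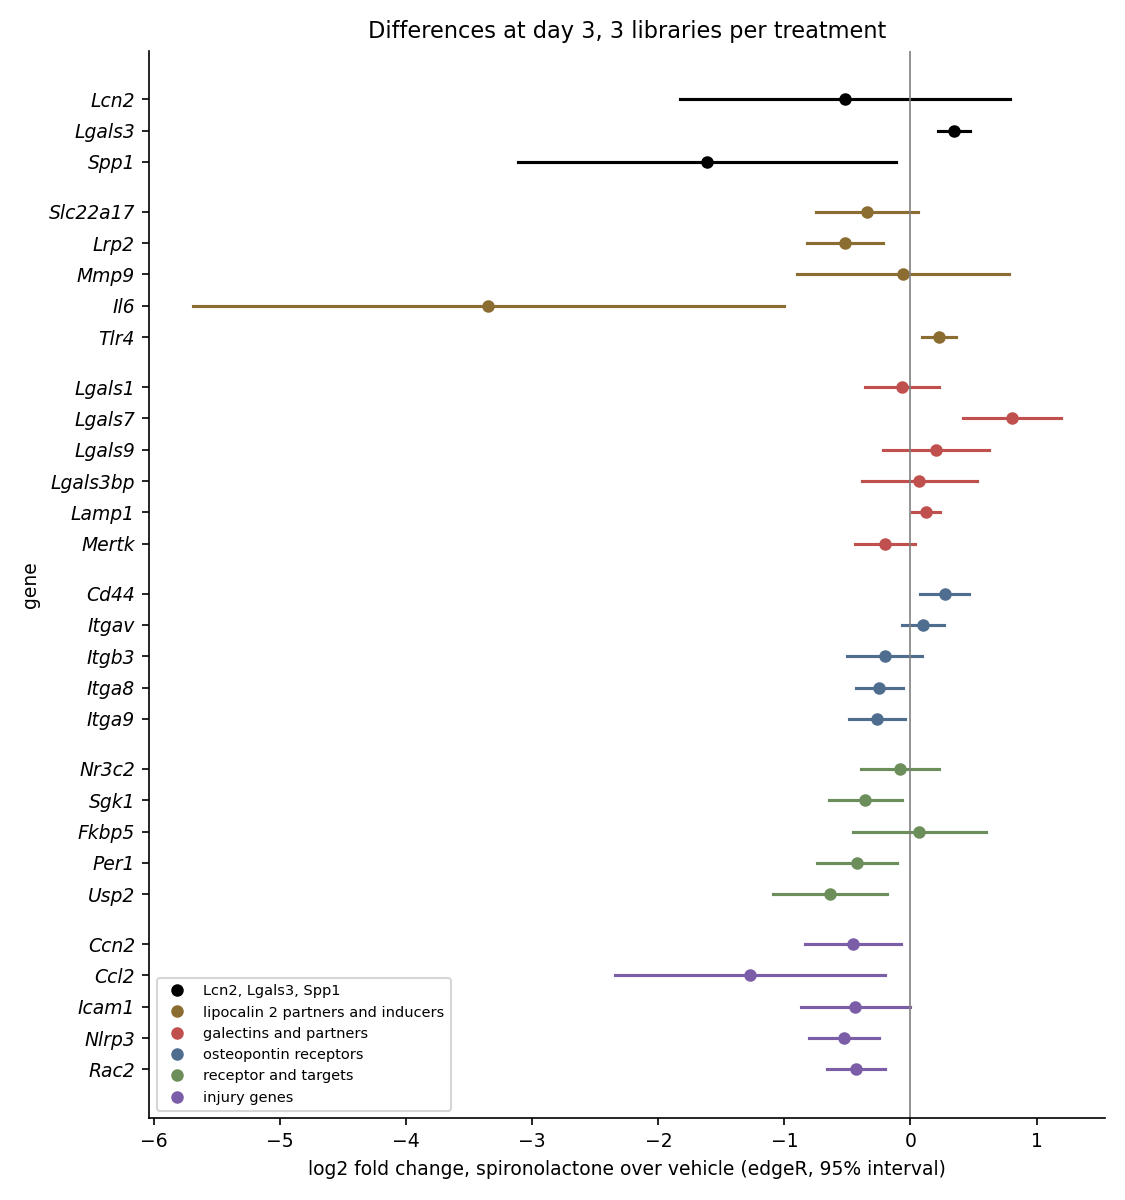
Log2 fold change of spironolactone over vehicle (horizontal axis) with its 95% interval for Lcn2, Lgals3 and Spp1 and for the named partners, receptors, targets and injury genes (vertical axis), 3 libraries per treatment. Lgals3 lies to the right of 0 at 0.35 beside Lgals7 at 0.81, while the 5 injury genes drawn, chosen as fixed partners or for the smallest p, lie to the left, from -1.27 for Ccl2 to -0.43 for Rac2.

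In pieces of tissue, fewer cells of a type and less RNA per cell cannot be told apart, and markers of several cell types moved with these genes. Epithelial markers had higher values with spironolactone in 14 of 14 tested genes, with a summed level of 29025 to 36027 TPM against 17191 to 24708 TPM with vehicle, led by Krt13, Krt5 and Krt14. Of the 14, 12 were higher without overlap, against 16% of all genes. edgeR called 0, with 12 higher at an unadjusted p under 0.05, against 22.6% of all genes in either direction. DESeq2 called 12 higher, where it called 9.25% of all genes in either direction. Krt12, the keratin that defines corneal epithelium, was low at 10.2 TPM with spironolactone and 8.63 TPM with vehicle, where Krt13, a keratin of conjunctiva, was at 9311 and 5463 TPM. Lgals3 divided by the summed epithelial marker TPM was 0.0361 ± 0.00294 with spironolactone and 0.0499 ± 0.00849 with vehicle (SD, n = 3 each). Against that sum it was thus lower with spironolactone, without overlap. That ratio weighs the leading keratins most, and Krt13, Krt5 and Krt14 had 0.83, 0.88 and 0.79 on the log2 scale. Pax6 and Krt12 had 0.20 and 0.30, below the 0.35 of Lgals3, and every other tested epithelial marker lay above it. Divided by the sum of macrophage markers, Lgals3 was higher with spironolactone, at 0.217 ± 0.0251 against 0.159 ± 0.0179, again without overlap. The direction of the Lgals3 difference thus depended on the marker sum it was set against.

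Macrophage markers were negative in 14 of 16 tested genes, and their summed level, led by Apoe, Gpnmb and Lyz2, was 5113 to 6067 TPM with spironolactone and 5517 to 6648 TPM with vehicle, with overlap. Spp1 divided by that sum was 0.00764 ± 0.00195 with spironolactone and 0.0213 ± 0.0135 with vehicle, and the libraries did not overlap, though spironolactone replicate 1 (0.00950) and vehicle replicate 3 (0.00960) nearly met. The median log2 fold change of the macrophage markers was -0.27, but Apoe and Gpnmb, which led their sum, had -0.06 and 0.04. Ratios to that sum, for Spp1 and for Lgals3, thus weigh these abundant genes most. Bone and cartilage markers, checked because osteopontin is a bone protein, were led by Ctsk and Acp5. They summed to 228.1 to 232.0 TPM with spironolactone and 215.7 to 230.9 TPM with vehicle, with overlap. Single genes went both ways, with 5 of 7 tested negative and 2 positive, from -1.10 to 0.54 on the log2 scale. Acp5 was the highest, at 76.3 against 54.7 TPM (adjusted p = 0.0649 by edgeR and 1.1e-04 by DESeq2). Bglap, Sp7 and Sost were too low to test.

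Neutrophil markers were negative in 6 of 6 tested genes, and their sum lay between 62.0 and 94.7 TPM with spironolactone and between 98.5 and 134.3 TPM with vehicle, without overlap. Of the 6, 3 were lower without overlap, against 16.1% of all genes. DESeq2 called 3 lower, against 3.44% of all genes, and edgeR called 0. S100a8, S100a9 and Fcnb led the list, Ltf was listed at 0 in every library, and 8 of the 14 markers, among them the granule genes Mpo, Elane and Camp, were too low to test. Lcn2 was at 133.5 to 476.1 TPM, above the summed neutrophil markers in each library. Divided by that sum Lcn2 was 2.69 ± 0.643 with spironolactone and 2.56 ± 1.23 with vehicle, with overlap. Per summed epithelial marker TPM, Lcn2 was 0.00648 ± 0.00402 with spironolactone and 0.0167 ± 0.0107 with vehicle, with overlap. Skeletal muscle markers summed to 157.5 to 281.7 TPM with spironolactone and 556.8 to 1196 TPM with vehicle. The 8 tested muscle genes were each lower with spironolactone without overlap, as were 16.1% of all genes. DESeq2 called all 8 lower, where it called 3.44% of all genes lower. edgeR called 0, with 8 lower at an unadjusted p under 0.05, against 22.6% of all genes in either direction. Per summed muscle marker TPM, Spp1 was 0.216 ± 0.0913 with spironolactone and 0.193 ± 0.207 with vehicle, with overlap. The vehicle mean rested on replicate 1: in vehicle replicates 1, 2 and 3 the ratio was 0.431, 0.0957 and 0.0518. Vehicle replicate 1 had the highest Spp1 level, 239.8 TPM, and the lowest muscle sum of the vehicle libraries, 556.8 TPM. Retinal markers summed to 3084, 3934.6 and 223.4 TPM in spironolactone replicates 1, 2 and 3. With vehicle they summed to 4819.5 to 5388.5 TPM, without overlap. All 9 tested retinal genes were lower without overlap, against 16.1% of all genes, with a median log2 fold change of -1.01. EdgeR called 0 of these 9, with 0 at an unadjusted p under 0.05, against 22.6% of all genes. Endothelial markers of blood vessels summed to 266.4 to 330.7 TPM with spironolactone and 329.9 to 451.6 TPM with vehicle, with overlap. Of the 10 endothelial genes 9 were negative, with a median of -0.42, and 4 were lower without overlap, against 16.1% of all genes. EdgeR called 0 of the 10, with 3 lower at an unadjusted p under 0.05, against 22.6% of all genes in either direction. DESeq2 called 3 lower, Emcn, Plvap and Erg, against 3.44% of all genes. Keratocyte and myofibroblast markers summed to 4438 to 4799 TPM with spironolactone and 4835 to 5004 TPM with vehicle, without overlap. Of the 9 tested genes 4 were positive and 5 negative, with a median of -0.08. The part of these tissues in the differences of Lcn2, Lgals3 and Spp1 was not tested beyond the values above and the fits without replicates 3.

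**Figure D4:**
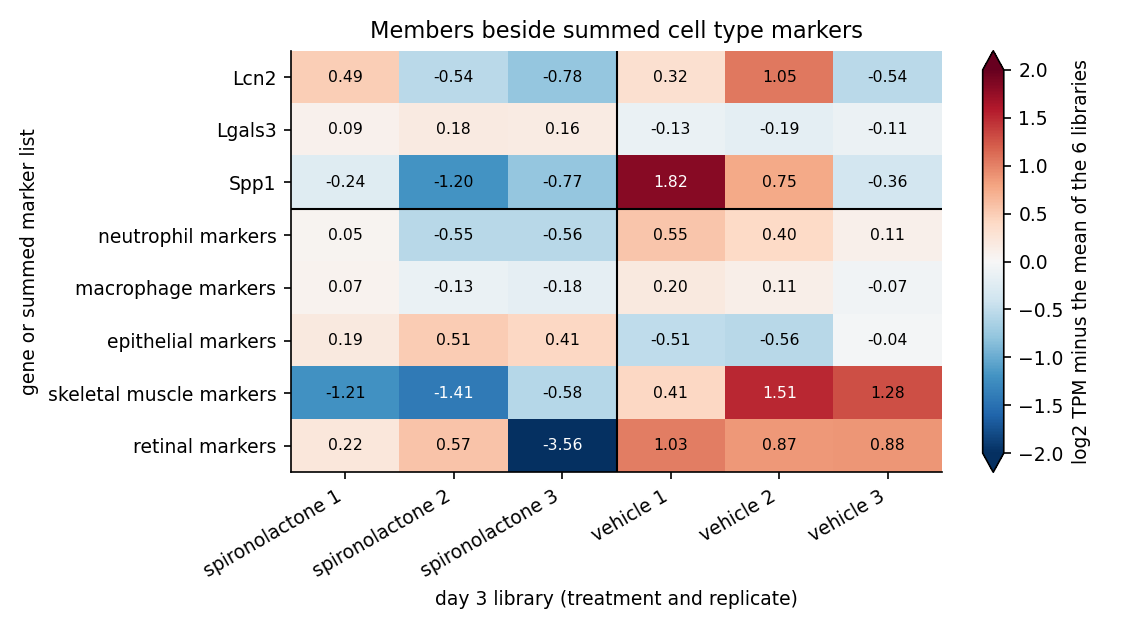
Log2 TPM minus the mean over the 6 day 3 libraries (colour and printed value, colours saturating at 2 on either side) for Lcn2, Lgals3, Spp1 and the summed markers of neutrophils, macrophages, epithelium, skeletal muscle and retina. Lgals3 is positive in every spironolactone library with the epithelial markers, Spp1 is highest at 1.82 in vehicle replicate 1, and the retinal markers are at -3.56 in spironolactone replicate 3.

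The genes whose log2 CPM followed each member most closely over the 6 libraries were picked from 11687 others with a mean of at least 5 CPM, as a description. For Lgals3 they were Egln3, an oxygen-sensing hydroxylase gene, Col17a1, a hemidesmosomal collagen gene, Usp3, Tmem102 and Wls, with Pearson r from 0.996 to 0.999. For Spp1 they were Rpn1, Pdgfb, a growth factor gene, Spi1, a transcription factor of myeloid cells, Itgb2, a leukocyte integrin chain, and Tnfrsf26, with r from 0.991 to 0.997. For Lcn2 they were Zfp507, Col6a5, Gja4, Pcsk5 and Peli1, with r from 0.983 to 0.986. With so few libraries high values are common: r reached 0.9 in 8% of genes for Lgals3, 2.92% for Spp1 and 1.77% for Lcn2. Between the members r was 0.65 for Lcn2 with Spp1, -0.79 for Lgals3 with Spp1 and -0.58 for Lcn2 with Lgals3 over the same 6 libraries.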

How the data were processed

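The submitters' processing notes list fastp, STAR 2.5.3a, RSEM 1.2.28 and the genome builds Rnor_6.0 and rn6, but not what each was used for. Per the file headers, the deposited day 3 files hold the authors' expected counts per gene, estimated counts that need not be whole, with effective lengths, and the authors' TPM. Lcn2 sums 1 transcript, Lgals3 3 and Spp1 2. The use of strand in counting was not given in the sources used here. A row that names no gene (0.12% to 0.181% of counts) was left out, leaving 18.1 to 25.3 M per library.

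Expected counts were rounded and tested with edgeR 4.0.16 in R 4.3.3: expression filter with a minimum count of 10, TMM, robust quasi-likelihood test of spironolactone against vehicle, and Benjamini-Hochberg adjustment over 14762 genes at 0.05. An SE is the absolute log2 change over the root of F. Log2 CPM used a prior count of 2. The test was checked on simulated data. Alternatives were DESeq2 1.42.0, limma-voom (limma 3.58.1), RLE, other filters, effective-length offsets, limma on log2(TPM + 1), a replicate block and each library left out. Replicates differed by more than sampling noise (chi-square per gene 7.9 to 23.3). The members and gene lists were chosen with earlier results of these data known. The rule for genes named beside the members took the fixed partners and up to 3 per list with the smallest p. It also took the 3 most abundant markers per cell type and the 5 genes most like each member. Other genes, such as Krt12, Mmp2 and Erg, were named after their values were seen, also where the text does not say so. No set test was run. A gene that this rule names is not reported here. Of the marker genes listed, Krt6a, Muc4, Col1a2, Myh1, Myh4 and Prph2 are not analysed here.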

Additional observations from a re-analysis of the deposited data

How the results depend on the processing

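Over the 15 alternative fits Lcn2 and Spp1 kept a negative sign and Lgals3 a positive one, and no fit had an adjusted p under 0.05 for Lcn2 (0.318 to 0.974) or Spp1 (0.099 to 0.427). Lgals3 passed in 4: a log2 fold change of 0.354 with DESeq2, 0.348 without a filter (adjusted p = 0.047), 0.394 without vehicle replicate 3 (adjusted p = 0.026) and 0.367 with both replicates 3 left out (adjusted p = 0.0285). In the others its adjusted p ran up to 0.259. With each library left out in turn, where the treatment with fewer libraries is assumed to vary like the other, the log2 fold change ran from 0.332 to 0.394 for Lgals3, from -1.98 to -0.92 for Spp1 and from -1.01 to -0.04 for Lcn2. Over all genes edgeR called 0, with 3332 at an unadjusted p under 0.05; DESeq2 called 1334, edgeR without a filter 148 and edgeR with both replicates 3 left out 1040. Leaving out single libraries gave 0 to 781 calls: 781 when vehicle replicate 3 was dropped, 40 for vehicle replicate 1 and 2 for spironolactone replicate 3. The cause of these changes was not tested. With the replicate number as a block the log2 fold changes were 0.349 for Lgals3 (adjusted p = 0.0886), -1.43 for Spp1 and -0.49 for Lcn2, and 0 genes were called. Same-numbered libraries deviated with correlations of 0.09, -0.08 and 0.05 across genes, and differently numbered ones with -0.106 to 0.0497. With 3 libraries per treatment these values cannot decide whether the numbers pair the libraries. The count of negative injury genes under each fit was computed after seeing the data. Counts were ample for all members, and each treatment had only 3 libraries. What limits the precision was not tested.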
